A study of Mus musculus with 8 samples.

Results

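The chromosome 5 segment described here runs over chr5:116000001-136000000 of mm9 and holds 2000 tiles of 10 kb, of 263909 tiles on chromosomes 1 to 19 and X. It was picked from the measured H3K4me3 data, because its bins of 2 Mb held a larger share of the H3K4me3 peaks of LLC-R tumors than of LLC-NR tumors, so its H3K4me3 values are a description and not a finding. ChIP-seq was performed on tumor isografts of 2 Lewis lung carcinoma lines, a mouse lung tumor line that grows in C57BL/6J mice. LLC-NR is labelled drug sensitive, and LLC-R is the line that had been selected in mice under continuous VEGF-Trap, an inhibitor of VEGF, and is labelled drug resistant. Both lines were grown under the skin of female C57BL/6J mice, 6 to 8 weeks old when obtained, and an isograft holds host stroma and blood vessels beside tumor cells. There was 1 library for each line and mark, 8 in all, so no difference has a replicate check, no test between the tumors was possible, and the intervals given are 95% intervals that cover counting error only.

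H3K4me3 and H3K9ac are histone marks of active promoters, H3K27me3 is laid down by Polycomb complexes over silent developmental genes, and H3K36me3 follows elongating RNA polymerase through gene bodies. The deposited peaks are single nucleosome positions, and they lie across the whole genome rather than at promoters only. The segment carries the Tbx3, Tbx5 and Lhx5 developmental regulators, the antiviral oligoadenylate synthetase cluster, the very long neuronal genes Tmem132d and Auts2, and the mouse counterpart of the human Williams-Beuren region.

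Each library was a list of peaks of 147 bp with no height, and the number of peaks on the chromosomes used ranged from 5658932 to 9098890 per library, with 32.5% to 52.3% of the genome covered. The LLC-R library had 0.997 times the peaks of the LLC-NR library for H3K4me3, 0.919 times for H3K9ac, 1.26 times for H3K27me3 and 1.36 times for H3K36me3. Log2 ratios were therefore taken on the share of a library's own peaks, while counts of promoters, gaps and peaks are numbers as deposited and carry the difference in library size. Of the 2000 tiles, 1988 had at least 80% known bases, and 1982 of these held a mean of at least 5 peaks over the 8 libraries. The other 12 tiles were left out of the shares, and 13 tiles had 0 peaks in every library.

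To show what the measured unit looks like, 3 H3K4me3 peaks of LLC-R are printed from the mm9 sequence on the strand of the gene, with CpG dinucleotides in capitals. They are the peak nearest the TSS and outside annotated exons for the promoter of the segment with the largest increase in H3K4me3 peaks and for the genes nearest the located edges of the H3K4me3 difference. The positions are chr5:126258692-126258838 (plus strand) for Tmem132b, chr5:99282827-99282973 (plus strand) for Bmp3 and chr5:137359229-137359375 (minus strand) for Emid2.
Tmem132b: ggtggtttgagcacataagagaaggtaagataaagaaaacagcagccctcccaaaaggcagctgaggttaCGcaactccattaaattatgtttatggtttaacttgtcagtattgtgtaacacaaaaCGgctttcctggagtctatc
Bmp3: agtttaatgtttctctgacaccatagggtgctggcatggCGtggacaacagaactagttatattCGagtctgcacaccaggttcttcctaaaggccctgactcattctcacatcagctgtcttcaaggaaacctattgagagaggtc
Emid2: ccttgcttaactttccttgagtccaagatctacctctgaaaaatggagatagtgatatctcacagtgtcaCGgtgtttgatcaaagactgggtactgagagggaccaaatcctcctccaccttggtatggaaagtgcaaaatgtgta
The midpoints lay 239 bp upstream of the TSS for Tmem132b, 558 bp for Bmp3 and 223 bp for Emid2. None of the 3 had an LLC-NR H3K4me3 peak within 73 bp of its midpoint. Most LLC-R H3K4me3 peaks had none either. Only 39.6% of those in the segment and 44.2% on the rest of chromosome 5 had one. They held 2, 2 and 1 CpG dinucleotides, with G+C contents of 40.8%, 46.3% and 43.5%.

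All 4 marks had a larger share of their peaks in the segment in the resistant than in the sensitive tumors. For H3K4me3, the mark that chose the segment, 0.739% of the LLC-NR peaks and 0.919% of the LLC-R peaks lay in it, a log2 ratio of 0.31 (0.30 to 0.33). For H3K27me3, the shares of LLC-NR and LLC-R were 0.708% and 0.835%, a log2 ratio of 0.24 (0.22 to 0.26). H3K36me3 had 0.742% and 0.863%, a log2 ratio of 0.22 (0.20 to 0.23). The smallest difference was that of H3K9ac, with 0.797% and 0.864% and a log2 ratio of 0.12 (0.10 to 0.13). The rest of chromosome 5 gave log2 ratios of 0.05 for H3K4me3, 0.01 for H3K9ac, 0.04 for H3K27me3 and 0.03 for H3K36me3. The 3 marks that had no part in the choice of the segment thus went the same way as H3K4me3 in these libraries.

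In numbers of peaks, a tile of the segment held 21.1 ± 5.66 (SD over 1988 tiles) H3K4me3 peaks in LLC-NR against 26.2 ± 4.98 in LLC-R. The means of the rest of chromosome 5 were 21.6 and 22.3, so LLC-NR was lower and LLC-R higher in the segment than on the rest of the chromosome. H3K27me3 had 25.8 ± 8.07 and 38.2 ± 5.25 peaks per tile, and H3K36me3 had 24.0 ± 7.13 and 37.9 ± 5.10. For H3K9ac the numbers were 34.3 ± 7.12 and 34.1 ± 5.42. Over the segment as a whole, the larger share of LLC-R was thus a number of peaks that was kept in a library with fewer peaks. Parts of the segment differed in this, as given below. No tile exceeded 48 peaks in any library. Since 2 peaks of a library never overlap, the number has a ceiling.

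**Figure D1:**
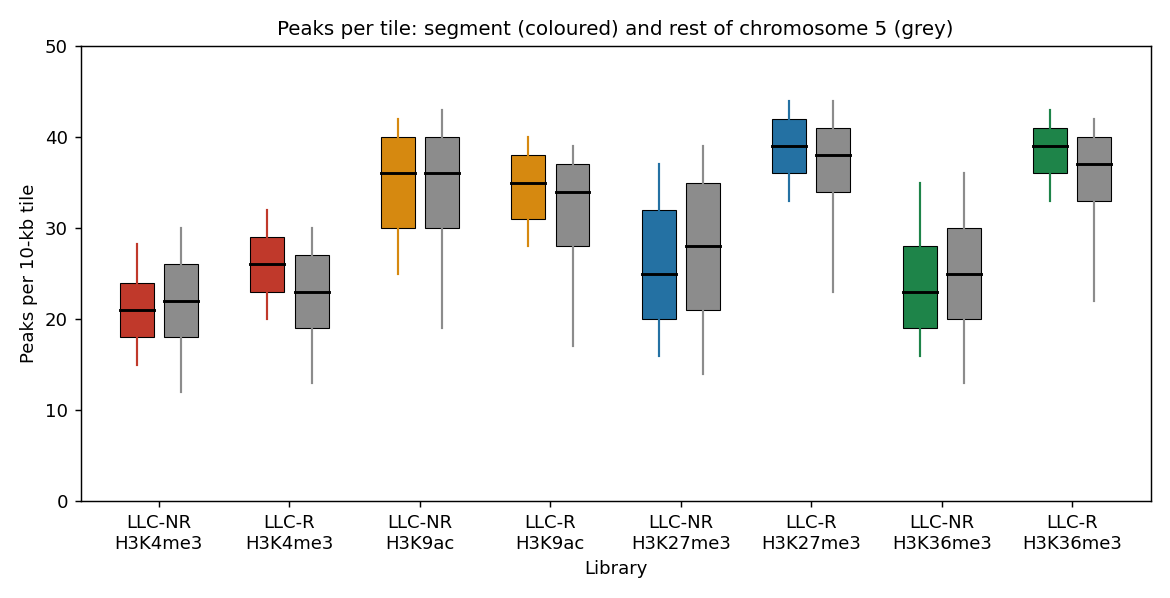
Peaks per 10-kb tile (vertical axis) in each of the 8 libraries, for tiles of the segment (coloured) and of the rest of chromosome 5 (grey). Boxes run from the 25th to the 75th percentile of tiles with a line at the median, and whiskers run from the 10th to the 90th percentile. The median of the segment for H3K4me3 is 21 peaks in LLC-NR but 26 in LLC-R, against 22 and 23 in the rest of chromosome 5.

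The difference lay in many tiles of the segment rather than in a few, but its size was uneven. Over the 2-Mb bins of the segment, log2 ratios ran from 0.23 to 0.38 for H3K4me3 and from 0.02 to 0.31 for H3K9ac. They ran from 0.09 to 0.45 for H3K27me3 and from 0.04 to 0.37 for H3K36me3. The share was larger in LLC-R for H3K4me3 in 1761 of 1982 tiles, against 53.7% of all tiles of the genome that passed the same minimum. Of the marks not used in the choice, H3K9ac was larger in 1503 tiles (50.7% of all tiles), H3K27me3 in 1494 (48.5%) and H3K36me3 in 1523 (52.6%). All 4 marks were larger together in 800 tiles of the segment, or 40.4%, against 9.54% of all tiles. On the rest of chromosome 5, all 4 were larger together in 11.2% of 12378 tiles. The joint count includes H3K4me3, which chose the segment, so its contrast with other tiles is partly fixed in advance. Each mark alone was also larger in most tiles of the segment, so the joint count is no separate result. Neighbouring tiles are not independent, and these shares are a description.

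LLC-NR H3K4me3 had wide empty stretches in the segment that were fewer in LLC-R. Neighbouring H3K4me3 peaks were 1000 bp or more apart at 3178 places in LLC-NR but at 1401 places in LLC-R. The median distance between neighbouring peaks was 352 bp in LLC-NR against 306 bp in LLC-R, while it was 327 bp in both on the rest of chromosome 5. On the rest of the chromosome, such gaps numbered 15984 and 13980. H3K9ac had 508 and 331 gaps in the segment but 5052 and 5684 on the rest. H3K27me3 had 2040 and 181 in the segment and 9623 and 4042 on the rest, and H3K36me3 had 2429 and 180 in the segment and 11907 and 4410 on the rest. For these 2 marks, whose LLC-R libraries hold more peaks, gaps were thus fewer in LLC-R outside the segment too. An LLC-NR H3K4me3 peak lay within 73 bp of 39.6% of the LLC-R peaks of the segment, against 44.2% on the rest of the chromosome.

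The segment is richer in G+C and in genes than the rest of chromosome 5. Its tiles had a mean G+C content of 46.9% ± 3.37 (SD over tiles) against 41.9% ± 4.67, with 11.2 and 8.51 protein-coding TSSs per Mb, respectively. Tiles of the segment were therefore compared with tiles of the rest of chromosome 5 in G+C bins of 1 percentage point. At like G+C, the log2 ratio of LLC-R to LLC-NR peaks relative to the rest of the chromosome was 0.22 for H3K4me3, 0.09 for H3K9ac, 0.25 for H3K27me3 and 0.15 for H3K36me3. Without the match on G+C, the segment exceeded the rest by 0.27, 0.10, 0.20 and 0.19, respectively. The matched values were thus smaller for H3K4me3, H3K9ac and H3K36me3 and larger for H3K27me3. This reference holds the raised, G+C-rich areas beside the segment, so these changes cannot be put down to G+C alone. With chromosome 5 before 94 Mb as reference, chosen after seeing the data, the matched values were 0.29, 0.11, 0.31 and 0.22. Relative to tiles of like G+C on the other autosomes, the values were 0.29, 0.11, 0.29 and 0.21. Over the 15 G+C bins from 40% to 55% that held at least 20 tiles in both areas, the segment was above the rest in 15 bins for H3K4me3 and for H3K27me3, in 14 for H3K9ac and in 13 for H3K36me3.

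**Figure D2:**
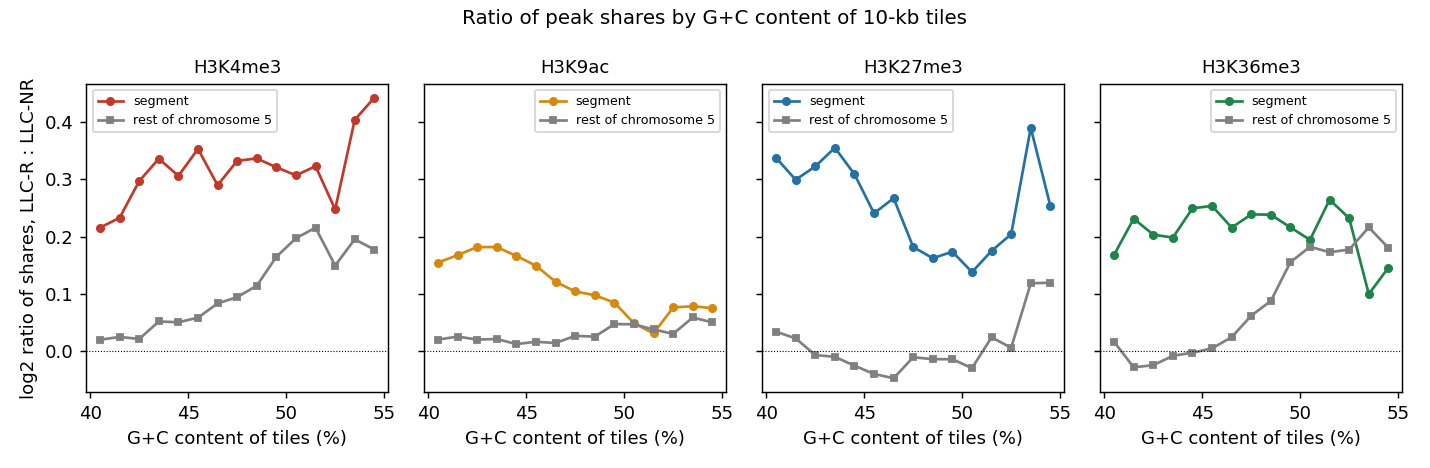
Log2 ratio of the shares of peaks, LLC-R to LLC-NR (vertical axis), against the G+C content of 10-kb tiles in bins of 1 percentage point (horizontal axis), for the segment (coloured) and the rest of chromosome 5 (grey). The lines of H3K4me3 and H3K27me3 are apart in all 15 bins, those of H3K9ac cross in 1 bin and those of H3K36me3 in the bins of highest G+C. The grey line includes the raised, G+C-rich areas beside the segment.

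The borders at 116 Mb and 136 Mb come from the 2-Mb bins of the rule and are not where the difference begins and ends. For H3K4me3, the bin just outside the first border had a log2 ratio of 0.22 and the bin just inside 0.29, and the bins at the last border had 0.28 inside and 0.23 outside. The 2 tiles inside the first border had 25 and 38 H3K4me3 peaks in LLC-NR against 33 and 37 in LLC-R, and the 2 tiles outside had 35 and 31 in LLC-NR against 41 and 31 in LLC-R. At the last border, the 2 tiles inside had 21 and 26 peaks in LLC-NR against 20 and 27 in LLC-R, and the 2 outside had 26 and 28 in LLC-NR against 27 and 31 in LLC-R. No step was seen at either border.

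The H3K4me3 difference reached well past the segment on both sides. The log2 ratio of shares was 0.00 from the start of the chromosome to 94 Mb, 0.21 from 96 to 116 Mb, 0.31 in the segment, 0.17 from 136 to 144 Mb and 0.01 from 144 to 154 Mb. Between 94 and 96 Mb, both H3K4me3 libraries held under 2 peaks per tile, so the ratio there says little. Of the 65 bins of 2 Mb on the rest of chromosome 5, 3 were above the lowest bin of the segment (0.23), and the highest of them, from 112 to 114 Mb, was at 0.47 and above every bin of the segment (highest 0.38). For the marks that did not choose the segment, more of the 65 bins were above the lowest bin of the segment, 22 for H3K9ac, 24 for H3K27me3 and 33 for H3K36me3. Above the median bin of the segment were 2 for H3K4me3, 4 for H3K9ac, 8 for H3K27me3 and 4 for H3K36me3. The bin from 94 to 96 Mb, which held few peaks, is included in both counts for every mark. H3K27me3 had log2 ratios of 0.10 from 96 to 116 Mb and 0.05 from 136 to 144 Mb, H3K36me3 had 0.12 and 0.11, and H3K9ac had 0.06 and 0.04. Farther away, the bin from 50 to 52 Mb, singled out after its values were seen, also stood above its neighbours in all 4 marks, with 0.19 for H3K4me3, 0.15 for H3K9ac, 0.36 for H3K27me3 and 0.33 for H3K36me3.

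One raised stretch was fitted to the log2 ratios at like G+C of 100-kb windows of chromosome 5, with the other autosomes as reference. For H3K4me3, the stretch ran from 99.2 to 137.3 Mb, with a mean log2 ratio of 0.26 inside and 0.03 outside, and took up 35.3% of the sum of squares. Its start lay between 1700010H22Rik and Bmp3, which encodes a growth factor of the BMP family, and its end lay between Myl10, a myosin light chain gene, and Emid2, a collagen gene. For H3K27me3, the stretch ran from 104.1 Mb, between 1700016H13Rik and Aff1, to 137.0 Mb, between Sh2b2 and Cux1. H3K36me3 gave 109.2 Mb, between Rnf212 and Tmed11, to 134.6 Mb, between Gatsl2 and Wbscr16. The fit took up less of the sum of squares for the marks that did not choose the segment, with 27.4% for H3K9ac, 20.2% for H3K27me3 and 14.5% for H3K36me3. The starts differed by mark, while all 4 ends lay between 134.6 and 137.3 Mb.

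H3K9ac behaved apart from the other marks. Its stretch was 8.6 Mb long and ran from 126.0 Mb, between Aacs and Tmem132b, to 134.6 Mb, between Gatsl2 and Wbscr16. It covered 43% of the segment, against 100% for H3K4me3 and H3K27me3 and 93% for H3K36me3. The last edge of H3K9ac and H3K36me3 fell in the same window, just before the genes of the Williams-Beuren region. With windows of 200 kb or with no G+C term, the edges of H3K9ac moved by at most 0.1 Mb, while the H3K4me3 stretch ended at 142.4 Mb under both and started at 93.8 Mb under the first, and the H3K27me3 stretch started at 121.6 Mb under both and ended at 135.2 and 135.1 Mb.

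**Figure D3:**
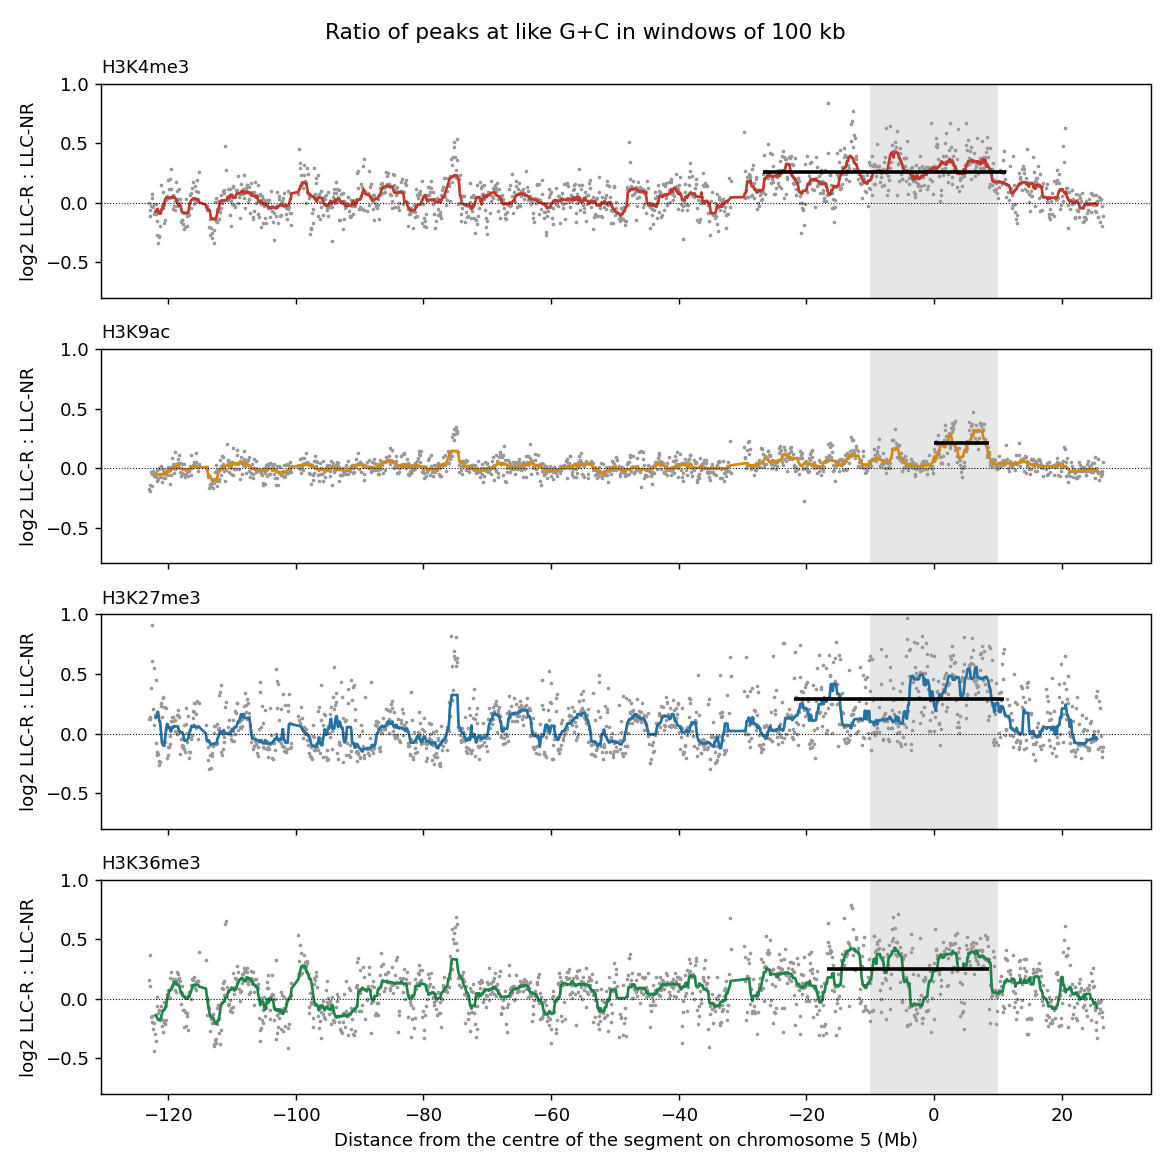
Log2 ratio of LLC-R to LLC-NR peaks at like G+C (vertical axis) in windows of 100 kb along chromosome 5, placed by distance in Mb from the centre of the segment (horizontal axis), with 1 panel per mark. Points are windows, the coloured line is a running median of 20 windows, grey shading is the segment and the black bar is the fitted raised stretch. The bar of H3K4me3 runs past the shading on both sides, and that of H3K9ac covers the second part of it.

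The H3K9ac stretch divides the segment into areas of different make-up. Its 857 tiles had a G+C content of 44.8% and 42 protein-coding TSSs, and 35.0% of their length lay in genes of over 200 kb. The other 1131 tiles had a G+C content of 48.4% and 180 TSSs, with 4.90% of their length in such genes. In the H3K9ac stretch, the log2 ratios of shares were 0.34 for H3K4me3, 0.21 for H3K9ac, 0.32 for H3K27me3 and 0.29 for H3K36me3. In the other tiles, they were 0.30, 0.06, 0.18 and 0.16. At like G+C, relative to the rest of chromosome 5, the values were 0.28, 0.18, 0.33 and 0.28 in the stretch and 0.17, 0.03, 0.19 and 0.07 in the other tiles. All 4 marks were thus higher in the gene-poor stretch, and for H3K4me3 the areas were farther apart at like G+C than without the match. In the stretch, H3K9ac had 29.7 peaks per tile in LLC-NR against 31.5 in LLC-R, but in the other tiles 37.7 against 36.1. The H3K9ac log2 ratio of the other tiles, 0.06, was also that of the area from 96 to 116 Mb. H3K9ac values defined this division, so the H3K9ac difference between its parts is no result.

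In numbers of peaks, the H3K4me3 difference of the segment lay away from promoters. Within 0.5 kb of a protein-coding TSS, H3K4me3 had 3.59 peaks per kb in LLC-NR but 3.54 in LLC-R, a log2 ratio of shares of -0.02 (-0.17 to 0.13). Over 50 kb from a TSS, it had 1.96 peaks per kb in LLC-NR against 2.51 in LLC-R, a log2 ratio of 0.37 (0.34 to 0.39). Between these, the log2 ratio was 0.01 at 0.5 to 2 kb, 0.22 at 2 to 10 kb and 0.34 at 10 to 50 kb. The rest of chromosome 5 stayed between -0.05 and 0.06 over the same classes. The difference was thus largest in the class where H3K4me3 peaks were sparsest in both lines. Peaks have no heights and do not overlap, so a difference in signal at the dense positions near a TSS was not measured.

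The other marks had other patterns. H3K9ac was at 0.02 within 0.5 kb and at 0.19 (0.16 to 0.21) over 50 kb from a TSS. H3K27me3 was at 0.05 (-0.10 to 0.21) within 0.5 kb and between 0.18 and 0.26 in the classes farther away. H3K36me3 was highest within 0.5 kb, at 0.56 (0.37 to 0.76), with 1.58 peaks per kb in LLC-NR against 3.17 in LLC-R. It was also high there on the rest of chromosome 5, at 0.31 (0.23 to 0.39), so this part of the H3K36me3 pattern was shared with the rest of the chromosome.

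**Figure D4:**
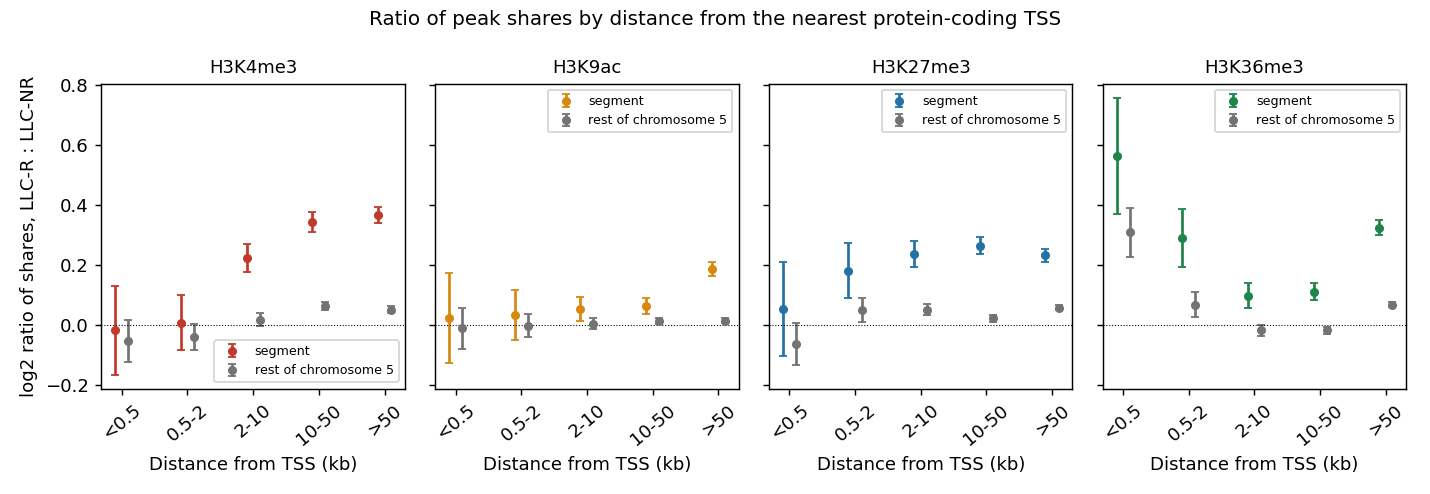
Log2 ratio of the shares of peaks, LLC-R to LLC-NR (vertical axis), in classes of distance in kb from the nearest protein-coding TSS (horizontal axis), for the segment (coloured) and the rest of chromosome 5 (grey). Bars are 95% intervals of counting error. H3K4me3 of the segment goes from -0.02 in the nearest class to 0.37 in the farthest.

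The segment holds the TSS of 222 protein-coding genes of GENCODE vM1, from Rplp0, a ribosomal protein gene, to Pom121, which encodes a nuclear pore protein, and of 10 lincRNA and 9 miRNA genes. A promoter was taken to reach 1 kb upstream and 0.5 kb downstream. H3K4me3 had more peaks in LLC-R at 64 promoters (28.8%), against 25.6% of all 22350 promoters, and fewer at 88 (39.6%), against 43.5%. Promoters of LLC-NR had a mean of 5.34 ± 1.67 (SD over 222 promoters) peaks, and those of LLC-R 5.24 ± 1.47. H3K9ac had more peaks at 53 promoters, or 23.9% (19.1% of all), and fewer at 104, or 46.8% (50.6% of all), with means of 5.64 ± 1.40 and 5.23 ± 1.19. As log2 ratios of shares, the promoters of the segment were at -0.02 (-0.14 to 0.10) for H3K4me3 and at 0.01 (-0.10 to 0.13) for H3K9ac, against -0.09 and -0.03 for all promoters. The promoters of the segment thus stood near all promoters for both active marks.

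H3K27me3 had more peaks in LLC-R at 160 promoters, or 72.1%, against 58.5% of all promoters, and fewer at 22, or 9.91%, against 15.0%. The means were 4.19 ± 1.65 in LLC-NR against 5.64 ± 1.25 in LLC-R. H3K36me3 had more at 203 promoters, or 91.4%, against 78.0% of all, and fewer at 2, or 0.901%, against 5.78%. Its means were 2.61 ± 1.34 and 5.03 ± 1.26. These 2 marks also had more peaks in LLC-R over the whole library. As log2 ratios of shares, H3K27me3 was at 0.10 (-0.02 to 0.22), an interval that holds 0, against -0.07 for all promoters, and H3K36me3 was at 0.50 (0.36 to 0.65) against 0.19.

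The 5 promoters with the largest increase in H3K4me3 peaks were those of Tmem132b, Pitpnm2, Wbscr17, Lrrc43 and Rab35. Tmem132b, a transmembrane protein gene, has 2 gene models in the annotation. The shorter one, ENSMUSG00000029483.6 with its TSS at 126259004, had 1 H3K4me3 peak in LLC-NR against 6 in LLC-R, and the longer one had 3 and 5. The shorter model also had 2 and 6 H3K9ac peaks. Pitpnm2, of the phosphatidylinositol transfer protein family, had 0 and 4 H3K4me3 peaks. Wbscr17, a glycosyltransferase gene, had 3 and 7, and Lrrc43 had 2 and 6. Rab35, a small GTPase of endosome recycling, had 6 and 9.

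The 5 promoters with the largest decrease in H3K4me3 peaks were those of Oas1a, Vps37b, Vps33a, Psmd9 and Snrnp35. Oas1a, an interferon-induced oligoadenylate synthetase, had 6 H3K4me3 peaks in LLC-NR against 2 in LLC-R, and 6 and 4 H3K9ac peaks. Vps37b, of an endosomal sorting complex, Vps33a, of a membrane tethering complex, and Psmd9, a proteasome assembly factor, each had 7 and 4. Snrnp35, of the minor spliceosome, had 8 and 5. At 70 of the 222 promoters the number was the same, while 62 had 1 peak fewer in LLC-R and 41 had 1 more.

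The 3 developmental regulators had many H3K27me3 peaks at their promoters in both lines. Tbx3, a T-box factor, had 7 H3K27me3 peaks in LLC-NR against 6 in LLC-R. Tbx5, its neighbour and the T-box factor of heart and forelimb, had 8 and 7. Lhx5, a LIM homeobox factor, also had 8 and 7. All 3 thus had 1 peak fewer in LLC-R, while 160 of the 222 promoters had more. However, the 222 promoters had a mean of 4.19 H3K27me3 peaks in LLC-NR and at most 8, so these 3 began near the top. Among other promoters that began at 7 or 8, some had fewer in LLC-R, such as Ksr2 (7 and 6). Others had more, such as Oas1d (7 and 8), so the decrease is not particular to these regulators. Their H3K36me3 peaks went from 0 to 5 at Tbx3, from 3 to 8 at Tbx5 and from 2 to 6 at Lhx5. Tbx5 had 2 and 4 H3K4me3 peaks.

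The 10 oligoadenylate synthetase genes, which sense double-stranded RNA in the interferon response, stood near the other promoters of the segment. H3K4me3 had more peaks in LLC-R at 3, the same at 2 and fewer at 5, with sums over the 10 of 52 in LLC-NR against 47 in LLC-R. H3K9ac had more at 0 and fewer at 5. H3K27me3 and H3K36me3 had more at 8 each and fewer at 0. Over all promoters, the shares with more and with fewer peaks were 25.6% and 43.5% for H3K4me3, 19.1% and 50.6% for H3K9ac, 58.5% and 15.0% for H3K27me3 and 78.0% and 5.78% for H3K36me3, and the lists that follow are to be read against these. The promoters of Oas1b and Oas1c lie head to head and share peaks, and both had 8 H3K4me3 peaks in each line. Oas1d had 4 and 3. Members of this family are close copies, and uniquely mapped reads can be missing from parts of them.

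All 25 genes of the Williams-Beuren list were in the segment. H3K4me3 had more peaks in LLC-R at 6 promoters and fewer at 11, H3K9ac more at 2 and fewer at 13, H3K27me3 more at 19 and fewer at 2, and H3K36me3 more at 22 and fewer at 1. Gtf2i, a general transcription factor gene, had 6 H3K4me3 peaks in both lines. Gtf2ird1, its relative, had 6 and 5, and Clip2, a microtubule linker gene, also had 6 and 5. Ncf1, a subunit of the phagocyte NADPH oxidase, had 3 in both. Fzd9, a Wnt receptor gene, had 6 H3K4me3 peaks in both lines, 7 and 4 H3K9ac peaks and 5 and 6 H3K27me3 peaks.

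Among 16 signalling genes, 14 had their TSS in the segment. H3K4me3 had more peaks at 1 and fewer at 7, and H3K36me3 had more at all 14, where 78.0% of all promoters and 91.4% of those of the segment had more. Ptpn11, the SHP2 phosphatase, had 6 H3K4me3 peaks in both lines, and its H3K27me3 peaks were 5 and 6. Sh2b3, an adaptor that restrains cytokine signalling, had 8 and 7 H3K4me3 peaks. Mapkapk5 had 7 and 8, and Camkk2, a kinase upstream of AMPK, had 8 and 7.

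Of 15 chromatin and transcription genes, 14 were in the segment, with more H3K4me3 peaks at 3 and fewer at 8. Kdm2b, a histone demethylase, had 5 and 6 H3K4me3 peaks. Setd8, the H4K20 methyltransferase, had 6 and 5, and Setd1b, an H3K4 methyltransferase, had 7 in both. Of 13 housekeeping and stress genes, 10 were in the segment, with more H3K4me3 peaks at 2 and fewer at 3. Ran, a GTPase of nuclear transport, had 7 and 5. Hspb8, a small heat shock protein gene, had 4 and 5 H3K4me3 peaks, and Psmd9 is given above. The 2 chemokine genes of the lists, Ccl24 and Ccl26, had their TSS outside the segment. Some genes stand in 2 of these lists, so the counts are not independent.

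Of the 11 gene models of the 10 long neuronal genes, H3K4me3 had more peaks at 6 promoters and fewer at 4, against 25.6% and 43.5% of all promoters. H3K9ac had more at 7 and fewer at 3, against 19.1% and 50.6%. The sums over the list were 45 and 54 for H3K4me3 and 33 and 48 for H3K9ac. Most of these models lie in the stretch that H3K9ac itself placed, so the H3K9ac values of the list are a description. The H3K4me3 sum was larger in LLC-R through the shorter Tmem132b model and Wbscr17, which were named above for their large increases, and the other models had the same sum in both lines. Auts2, a regulator of neuronal development, had 5 and 6 H3K4me3 peaks, Caln1, a calcium-binding protein gene, had 3 and 2, and Wbscr17 had 3 and 7.

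Over gene bodies, the share of H3K4me3 peaks was larger in LLC-R in 192 of the 210 genes with over 3 peaks in each line, against 50.9% of all genes of that kind. H3K9ac was larger in 154 of 214 (47.4% of all), H3K27me3 in 170 of 211 (55.3% of all) and H3K36me3 in 100 of 208 (34.6% of all). The median log2 ratio over genes was 0.27 for H3K4me3, 0.04 for H3K9ac, 0.47 for H3K27me3 and -0.04 for H3K36me3.

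All 7 genes of over 200 kb had a larger share of H3K4me3 peaks in LLC-R, with a median log2 ratio of 0.38. The median was 0.30 in the 114 genes of 20 to 200 kb and 0.20 in genes under 20 kb. For H3K27me3, the medians were 0.41, 0.51 and 0.38 in the same order, so they did not follow gene length. Auts2, of 1106 kb, had 20.8 H3K4me3 peaks per 10 kb of its body in LLC-NR against 25.9 in LLC-R, a log2 ratio of shares of 0.32. Its H3K27me3 peaks were 22.5 and 37.6 per 10 kb (0.41), and its H3K36me3 peaks 22.0 and 37.8 (0.33). Tmem132d, of 675 kb, had 19.8 and 25.7 H3K4me3 peaks per 10 kb (0.38). Its relative Tmem132c had 18.2 and 25.6 (0.49), and Caln1 had 19.6 and 26.4 (0.43). Med13l, which encodes a Mediator subunit, had 17.6 and 24.9 (0.51).

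Ksr2 and Med13l are the 2 of these genes outside the H3K9ac stretch. Ksr2, a scaffold of the Raf and MEK kinases, had 37.8 H3K9ac peaks per 10 kb in LLC-NR against 37.0 in LLC-R, a log2 ratio of shares of 0.09, and Med13l had 40.9 and 38.6 (0.04). H3K9ac itself placed the stretch, so these values are a description. Ksr2 was below the other genes for H3K27me3, at -0.04 with 33.5 and 40.8 peaks per 10 kb, but among them for H3K36me3, at 0.36. Med13l was below the others for H3K36me3, at -0.05 with 31.0 and 40.8, but among them for H3K27me3, at 0.50. In both cases the low ratio went with the highest LLC-NR level of its mark among the 7 genes.

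**Figure D5:**
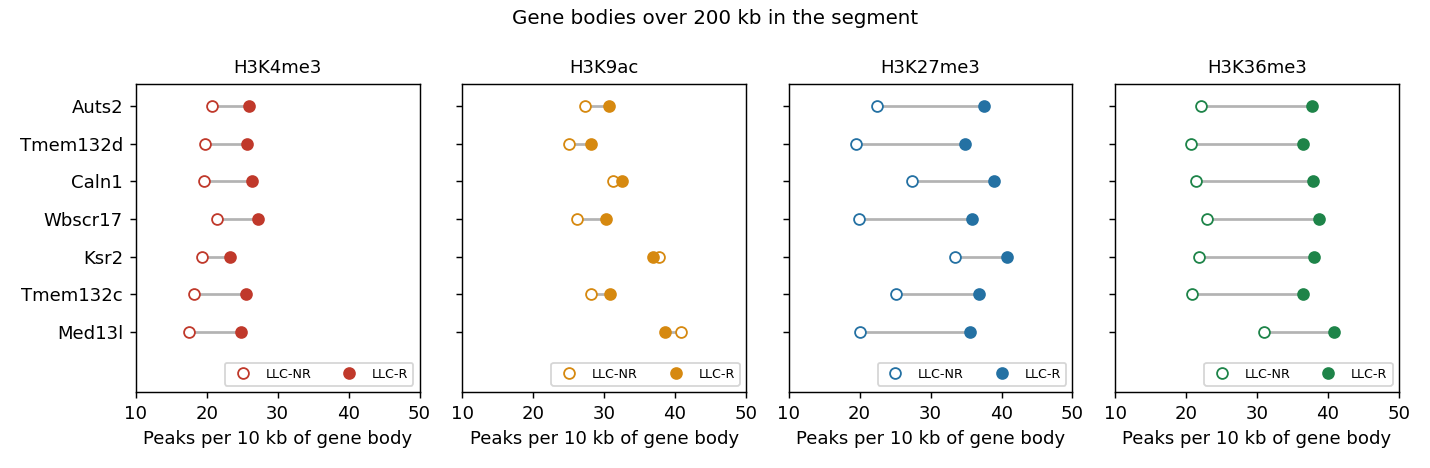
Peaks per 10 kb of gene body (horizontal axis, from 10 to 50) in LLC-NR (open) and LLC-R (filled) for the 7 genes of the segment over 200 kb, in order of length, with 1 panel per mark. For H3K4me3, LLC-R lies above LLC-NR in all 7, from 0.27 to 0.51 as log2 ratios of shares, and for H3K9ac, Ksr2 and Med13l have fewer peaks in LLC-R.

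Across the tiles, ratios were lower where LLC-NR had more peaks. Over the 1982 tiles, the Spearman correlation between the log2 ratio and the number of LLC-NR peaks was -0.93 for H3K27me3, -0.90 for H3K36me3, -0.70 for H3K4me3 and -0.69 for H3K9ac. Both values share the LLC-NR library, and the number of peaks per tile has a ceiling, so a negative value is built in and its part in the ratios was not tested. The log2 ratios of H3K27me3 and H3K36me3 had a correlation of -0.38 with each other, and H3K4me3 had 0.11, 0.08 and 0.06 with H3K9ac, H3K27me3 and H3K36me3.

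The 5 tiles with the largest H3K4me3 log2 ratio, which was taken with 0.5 peaks added, lay in gene bodies. The first, chr5:121270001-121280000 in Oas1b, had 5 H3K4me3 peaks in LLC-NR against 17 in LLC-R (1.67) and 17 H3K9ac peaks in both lines. Of the next 4, 2 were neighbours in Tmem132d, with 10 and 28 peaks (1.45) and with 13 and 33 (1.32). The tile over Rfc2 and Lat2 had 13 and 35 H3K4me3 peaks (1.40) and 12 and 38 H3K27me3 peaks. The last, in Ccdc60, had 5 and 13 (1.30).

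Of the 5 tiles with the smallest ratio, 2 overlapped no protein-coding gene. The lowest, chr5:120490001-120500000, had 25 H3K4me3 peaks in LLC-NR against 17 in LLC-R (-0.54), and the next, chr5:126920001-126930000, had 24 and 17 (-0.48). The others lay in Eln, the elastin gene, with 27 and 20 (-0.42), in Gm15800 with 35 and 26 (-0.42) and in Ksr2 with 20 and 15 (-0.40). Over all 1982 tiles, the middle 50% of H3K4me3 log2 ratios lay between 0.12 and 0.52.

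Promoter peaks of host cell markers were present in both lines. The 5 leukocyte markers (Ptprc, Cd68, Itgam, Csf1r and Cd3e) held 24 H3K4me3 peaks in LLC-NR against 20 in LLC-R. The 4 endothelial markers (Pecam1, Cdh5, Kdr and Tek) held 20 and 17, and the 4 fibroblast markers (Col1a1, Col1a2, Pdgfrb and Dcn) held 22 and 23. No marker promoter was at 0 in either library, so these peaks do not measure the content of host cells, and its part in the difference was not tested.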

How the data were processed

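Reads had been aligned by the authors to mm9 (Bowtie 0.12.7), and uniquely mapped ones were passed to GeneTrack, whose settings are not given in the sources used here. The deposited files give positions of peaks, with no count of reads, height or strand, and read depth was not used here. Peaks were assigned by midpoint to tiles of 10 kb. Genes were those of GENCODE vM1 on NCBIM37, the same assembly as mm9, with the TSS shared by most transcripts. Log2 ratios compare shares of a library's own peaks on chromosomes 1 to 19 and X. At like G+C, the LLC-R peaks of a tile were set against its LLC-NR peaks times the ratio of reference tiles of the same bin, with at least 20 reference tiles. Edges came from a least squares fit of 1 stretch of at least 1 Mb. Intervals are exact binomial. Segment and gene lists were chosen with earlier results of these data known.

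The genes named were up to 4 per list in list order, those beside each edge, those of the 5 largest increases and decreases in H3K4me3 promoter peaks, and those of the 5 largest and smallest tiles. Genes of over 200 kb and the first and last gene of the segment were added after their values were seen. The printed peaks were to be those nearest the TSS, and peaks over exons were passed over. Some values and a sequence chosen by these rules are not reported here. The ratio at like G+C, the fit and the edges were tested on simulated counts with 1 sharp stretch at the borders of the segment. Those counts had no ceiling and no raised areas beside the stretch, and edges were checked only at the largest simulated difference. The simulation thus does not show how exact the edges and ratios of these data are. The tools were pandas 2.3.3, NumPy 2.4.6 and SciPy 1.17.1 under Python 3.11.15, with Matplotlib 3.10.9 for figures.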

Additional observations from a re-analysis of the deposited data

How the results depend on the processing

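Of 104 recomputed values, 75 stayed within counting error, within 0.2 Mb for an edge or within 1.5 times for a count. No log2 ratio changed sign, while counts and edges could not. The counts of tiles stayed within 1.5 times under every alternative, which is a wide margin. Relative to the rest of chromosome 5 at like G+C, H3K4me3 was larger in 1516 tiles against 1761. H3K9ac was then larger in 1355 against 1503, H3K27me3 in 1504 against 1494 and H3K36me3 in 1421 against 1523. Without tiles that hold a TSS, the H3K4me3 log2 ratio of shares was 0.34. Leaving out 1 bin of 2 Mb took H3K9ac down to 0.10 and its ratio at like G+C down to 0.071, H3K27me3 to between 0.22 and 0.26 and at like G+C to between 0.23 and 0.27, and H3K36me3 up to 0.24 and at like G+C to between 0.14 and 0.18. With all other autosomes as reference at like G+C, the ratios were 0.29 for H3K4me3, 0.11 for H3K9ac, 0.29 for H3K27me3 and 0.21 for H3K36me3. With chromosome 5 before 94 Mb as reference, chosen after seeing the data, they were 0.29, 0.11, 0.31 and 0.22. A straight line on G+C gave 0.21 for H3K27me3 and 0.12 for H3K36me3. Edges moved more. With windows of 200 kb, the H3K4me3 stretch ran from 93.8 to 142.4 Mb and that of H3K27me3 from 121.6 to 135.2 Mb. With no G+C term, the ends were 142.4 Mb for H3K4me3, 135.1 Mb for H3K27me3 and 140.5 Mb for H3K36me3, and H3K27me3 started at 121.6 Mb. Promoters with fewer H3K36me3 peaks were 7 in windows of 0.5 kb on either side of the TSS, against 2. The causes were not tested. No paired analysis was possible because each line and mark had 1 library. The number of peaks has a ceiling and the files give no heights, so differences in occupancy at dense positions were not measured, and differences between tumors of the same line are not known.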
